A study of Mus musculus with 3072 samples.

Results

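The Bcl2 family genes described here are Bcl2, Bcl2l1, Mcl1, Bax, Bak1, Bid, Bcl2l11, Bad, Bbc3 and Pmaip1, chosen by symbol. All 10 were found among the 55291 gene symbols of the count matrix, each on 1 row. Single bone marrow cells of WT C57BL/6 mice were FACS-sorted and sequenced with Smart-seq2, a full-length method without molecular identifiers. All mice, controls included, had been transplanted with barcoded stem cells. The 4 control mice were sampled 32 weeks after transplantation and the 4 mice labelled platelet_depleted 28 weeks after it. The populations are labelled HSC, CFU and MkP, names the labels do not spell out, and the means of depletion is not given in the sources used here. Treatment, week and experiment code coincide, so their contributions cannot be told apart.

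Bcl2 family proteins decide whether the outer mitochondrial membrane stays intact or is opened, the step that releases cytochrome c and starts the caspases. Guardians (Bcl2, Bcl-xL from Bcl2l1, Mcl1) restrain the effectors Bax and Bak, and BH3-only proteins (Bid, Bim from Bcl2l11, Bad, Puma from Bbc3, Noxa from Pmaip1) bind the guardians or switch on the effectors. In blood formation, Mcl1 is known to be needed by stem cells, Bcl-xL for the survival of late erythroid cells and for the lifespan of platelets.

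The upstream sequences of 5 members are shown because the levels of these genes in CFU overlapped neither other population, Bcl2 and Bcl2l1 being lower there and Bax, Bid and Bcl2l11 higher. Each is the 250 bases before the most upstream RefSeq start (GRCm38.p6), written 5′ to 3′ on the gene's strand, with GC boxes (GGGCGG or CCGCCC) in capitals. The windows lie at chr1:106714291-106714540 (minus strand) for Bcl2, chr2:152831729-152831978 (minus strand) for Bcl2l1, chr7:45466899-45467148 (minus strand) for Bax, chr6:120916825-120917074 (minus strand) for Bid and chr2:128125788-128126037 (plus strand) for Bcl2l11.
Bcl2: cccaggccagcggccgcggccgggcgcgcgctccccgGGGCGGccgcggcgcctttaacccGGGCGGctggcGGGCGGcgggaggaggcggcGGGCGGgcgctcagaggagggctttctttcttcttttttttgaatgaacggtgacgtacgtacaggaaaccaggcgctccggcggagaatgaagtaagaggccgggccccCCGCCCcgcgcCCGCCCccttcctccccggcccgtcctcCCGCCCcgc
Bcl2l1: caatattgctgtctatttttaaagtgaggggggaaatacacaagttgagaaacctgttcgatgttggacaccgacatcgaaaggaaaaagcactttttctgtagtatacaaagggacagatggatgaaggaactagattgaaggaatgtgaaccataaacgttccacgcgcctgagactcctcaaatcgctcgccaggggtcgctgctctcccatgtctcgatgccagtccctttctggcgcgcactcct
Bax: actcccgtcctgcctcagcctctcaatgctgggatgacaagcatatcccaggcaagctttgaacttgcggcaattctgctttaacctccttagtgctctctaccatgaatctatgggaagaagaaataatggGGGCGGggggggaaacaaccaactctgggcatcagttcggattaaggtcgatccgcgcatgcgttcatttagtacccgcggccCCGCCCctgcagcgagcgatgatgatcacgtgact
Bid: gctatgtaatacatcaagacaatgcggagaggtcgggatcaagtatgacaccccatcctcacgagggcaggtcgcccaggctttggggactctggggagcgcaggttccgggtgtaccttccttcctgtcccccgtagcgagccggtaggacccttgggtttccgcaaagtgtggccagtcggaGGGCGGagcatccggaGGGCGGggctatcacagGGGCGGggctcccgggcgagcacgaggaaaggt
Bcl2l11: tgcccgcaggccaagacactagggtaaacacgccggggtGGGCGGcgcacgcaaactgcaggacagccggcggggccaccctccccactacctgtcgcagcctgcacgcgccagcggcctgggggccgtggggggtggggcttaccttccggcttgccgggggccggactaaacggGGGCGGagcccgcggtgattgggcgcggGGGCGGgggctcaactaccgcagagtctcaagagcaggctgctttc

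The Bcl2 window held 7 GC boxes and the Bcl2l1 window 0, that of Bax held 2, and those of Bid and Bcl2l11 held 3 each. Of the 5 genes shown, the 2 lower in CFU were thus unlike in GC boxes in these windows. Bcl2l1 had 3 RefSeq starts and Bcl2l11 had 2, and only the most upstream was read. Bbc3, lower in CFU than in HSC and MkP, held 5 GC boxes, and Mcl1, lower than in HSC, held 1. A GC box was present in 32.7% of all 32851 windows of this length. GC content was 74.8% for Bcl2, 47.6% for Bcl2l1, 54% for Bax, 63.6% for Bid and 72% for Bcl2l11, against a median of 52.4% over all windows. Both strands were searched, and overlapping matches, of the same motif or of different motifs, were counted separately. In Bbc3 the GC boxes at 16 to 11 and at 11 to 6 bases before the start share a base. Neither GATAA, the core bound by GATA factors and present in 22.6% of windows, nor TTCNNNGAA, the STAT motif present in 7.02%, was among the letters of the windows of the 9 members examined. CCAAT, present in 33.8% of windows, was found in that of Bcl2l11 alone among the 9. In GENCODE M21 (GRCm38) all 10 genes are protein coding, with Bcl2 at chr1:106538178-106714274, Bcl2l1 at chr2:152780668-152831728, Mcl1 at chr3:95658788-95663176, Bax at chr7:45461697-45466898, Bak1 at chr17:27019810-27029009, Bid at chr6:120891930-120916853, Bcl2l11 at chr2:128126038-128162547, Bad at chr19:6941861-6951899 and Bbc3 at chr7:16308393-16318205.

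Wells with under 20000 counts, under 1000 genes or over 20% mitochondrial counts were removed, leaving 2668 of 3069 wells with 24105 to 6910788 counts (median 1718305). They held 697 HSC, 647 CFU and 1324 MkP cells. Counts were summed per mouse and population into 24 sums, and levels are CPM, the counts of a gene relative to the total of its sum after TMM scaling, which corrects for differences in composition. Marker genes followed the labels: the 7 HSC markers summed to 666 to 1359 CPM in HSC and at most 162.8 CPM elsewhere, and the 8 megakaryocyte markers to 3011 to 5349 CPM in MkP and at most 842 CPM elsewhere. The 9 erythroid markers summed to 13535 to 18878 CPM in CFU and at most 2561 CPM elsewhere. The title code was taken as the mouse. For comparisons of populations, p-values rest on a spread pooled over the 24 sums, in which each mouse gave a sum per population. For depletion they rest on the spread between the 8 mice within a population.

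CFU stood apart from both other populations. The guardians Bcl2 and Bcl2l1 were lower there, and the effector Bax and the BH3-only genes Bid and Bcl2l11 were higher, than in HSC or MkP. In edgeR's quasi-likelihood test over the 24 sums, 9 of 10 members passed an adjusted p of 0.05 for CFU against HSC, where 64.9% of 19573 genes tested passed. Of these members 5 were higher in CFU (as were 28.8% of genes) and 4 lower (36.1%). For CFU against MkP 7 of 10 passed, against 55.3% of genes, 4 higher in CFU (23.5% of genes) and 3 lower (31.8%). For MkP against HSC 2 of 10 passed, against 31% of genes, both higher in MkP (17.4% of genes higher, 13.6% lower). The members' median log2 fold change was 0.03 for CFU against HSC (-0.23 over all genes), -0.05 for CFU against MkP (-0.21) and 0.28 for MkP against HSC (0.01).

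**Figure D1:**
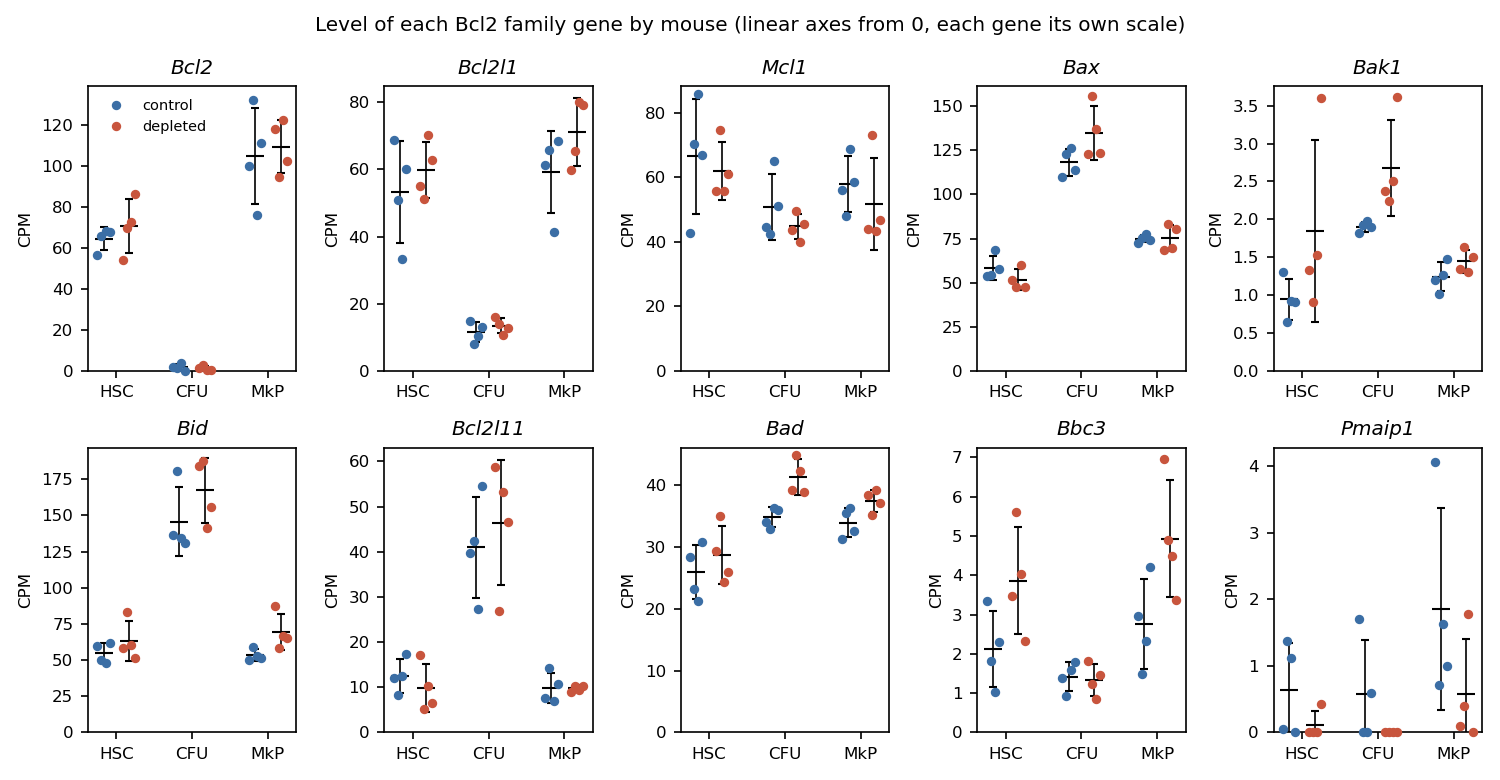
Level in CPM of each gene in HSC, CFU and MkP, 1 point per mouse (control blue, depleted red), with the mean and SD of 4 mice in black, on linear axes from 0 with a scale for each gene. In CFU, Bcl2 lies at 0.1395 to 3.69 CPM, below every other sum, and Bax, Bid and Bcl2l11 lie above every other sum.

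Bcl2, the guardian that names the family, was close to absent from CFU. It ran from 54.05 to 86.4 CPM (median 67.97) in HSC, from 75.8 to 132 CPM (median 107) in MkP and from 0.1395 to 3.69 CPM (median 1.23) in CFU. All 8 CFU sums lay below every HSC and MkP sum, and 7 of 8 MkP sums lay above every HSC sum. The log2 fold change was -5.55 ± 0.47 (adjusted p = 3.25e-10) for CFU against HSC and -6.21 ± 0.48 (adjusted p = 1.53e-10) for CFU against MkP, each with its SE. Exons of Bcl2 share 558 of 9157 bases with the antisense gene D630008O14Rik, whose reads cannot be told apart without strand.

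For MkP against HSC the log2 fold change of Bcl2 was 0.66 ± 0.38 and did not pass (95% interval -0.13 to 1.46, adjusted p = 0.2103). It passed when only the MkP and HSC sums were fitted, at 0.64 (adjusted p = 2.41e-04), and when each cell was thinned to 100000 counts, at 0.71 (adjusted p = 0.0342). Its adjusted p spanned 2.41e-04 to 0.351 across the alternatives.

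Part of the little Bcl2 seen in CFU lay in few cells. Of 1800 Bcl2 counts over all CFU cells, 841 (46.7%) came from 20 of 647 cells that carried at least 3 genes, at 10 CPM or more, of a marker list for neutrophils and monocytes, mast cells and basophils, macrophages, B cells or T and NK cells. The share was 61.2% in control mouse 1, 66.8% in control mouse 3, 76.3% in depleted mouse 2 and 16.2% in depleted mouse 3, and no such count was found in the 4 other mice. The neutrophil and monocyte list, all 6 genes of which had counts in CFU, summed to 2.22 to 1354 CPM in control and 2.43 to 1216 CPM in depleted CFU. Without these cells in any population, an alternative added after the data were seen, the log2 fold change for CFU was -6.43 (adjusted p = 1.13e-13) against HSC and -7.12 (adjusted p = 6.92e-14) against MkP.

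**Figure D2:**
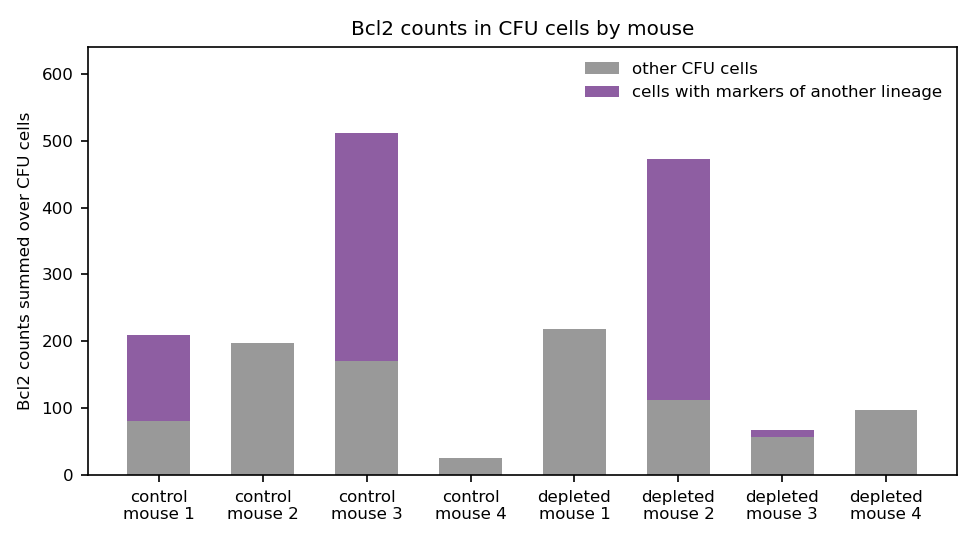
Bcl2 counts summed over the CFU cells of each mouse (bar height), split into cells with markers of another lineage (purple) and the other CFU cells (grey). In control mice 1 and 3 and depleted mouse 2 the cells with such markers hold the larger part.

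Bcl2l1, which encodes Bcl-xL, was also lower in CFU, by less than Bcl2. It ran from 33.3 to 70.1 CPM (median 57.6) in HSC, from 41.5 to 79.97 CPM (median 65.8) in MkP and from 7.95 to 16.04 CPM (median 13.1) in CFU, and CFU overlapped neither other population. The log2 fold change was -2.18 ± 0.15 (adjusted p = 1.12e-11) for CFU against HSC and -2.38 ± 0.15 (adjusted p = 5.82e-12) for CFU against MkP. MkP and HSC overlapped, with a log2 fold change of 0.20 (95% interval -0.10 to 0.50, adjusted p = 0.324).

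Mcl1, a guardian whose protein turns over quickly, differed less. It ran from 42.8 to 85.9 CPM (median 64.1) in HSC, from 43.4 to 73.1 CPM (median 52.1) in MkP and from 40.1 to 65.04 CPM (median 45.1) in CFU, and the 3 ranges overlapped. It was lower in CFU than in HSC, with a log2 fold change of -0.43 ± 0.13 (adjusted p = 0.00705). The other differences did not pass, at -0.20 (95% interval -0.47 to 0.07, adjusted p = 0.215) for CFU against MkP and -0.23 (95% interval -0.50 to 0.05, adjusted p = 0.212) for MkP against HSC.

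Of the effectors, which form the pores, Bax rose from HSC to MkP to CFU. It ran from 47.6 to 68.4 CPM (median 54.02) in HSC, from 68.3 to 83.04 CPM (median 74.8) in MkP and from 109.9 to 156 CPM (median 123) in CFU. CFU lay above all other sums, and 7 of 8 MkP sums lay above every HSC sum. The log2 fold change was 1.20 ± 0.08 (adjusted p = 4.73e-12) for CFU against HSC, 0.75 ± 0.08 (adjusted p = 2.12e-08) for CFU against MkP and 0.45 ± 0.08 (adjusted p = 1.06e-04) for MkP against HSC. Its exons share 192 of 1576 bases with Gm45808 on the same strand, so counts there are uncertain.

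Bak1, the other effector, was low throughout, at 0.645 to 3.598 CPM in HSC, 1.02 to 1.64 CPM in MkP and 1.82 to 3.61 CPM in CFU. The CFU sums lay above every MkP sum, with a log2 fold change of 0.74 ± 0.27 (adjusted p = 0.0223), and overlapped HSC, with 0.76 ± 0.27 (adjusted p = 0.0168). With no scaling factor neither passed, at 0.41 (adjusted p = 0.214) and 0.34 (adjusted p = 0.292). Leaving out control mouse 2 or 3 also ended the call against HSC (edgeR adjusted p = 0.0513 and 0.0505), and leaving out depleted mouse 3 ended that against MkP (edgeR adjusted p = 0.0508). Exons of Bak1 share 614 of 2407 bases with Ggnbp1 on the opposite strand.

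Among the BH3-only genes, Bid encodes a protein that caspase-8 cleaves into an activator of Bax and Bak. It ran from 48.2 to 83.04 CPM (median 59.03) in HSC, from 50.2 to 87.2 CPM (median 58.9) in MkP and from 131 to 188 CPM (median 148) in CFU, and CFU overlapped neither other population. The log2 fold change was 1.41 ± 0.11 (adjusted p = 4.803e-11) for CFU against HSC and 1.36 ± 0.11 (adjusted p = 1.72e-10) for CFU against MkP, and 0.05 (95% interval -0.17 to 0.26, adjusted p = 0.786) for MkP against HSC. Exons of Bid share 628 of 3550 bases with Bcl2l13 on the opposite strand, and Bcl2l13 was itself higher in CFU, by 2.15 against HSC and 1.77 against MkP on the log2 scale. Smart-seq2 does not mark strand, so reads from those bases cannot be assigned to either gene, and their part in the result was not tested.

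Bcl2l11, which encodes Bim, ran from 5.26 to 17.5 CPM (median 11.1) in HSC, from 6.96 to 14.3 CPM (median 9.89) in MkP and from 26.98 to 58.8 CPM (median 44.5) in CFU. Every CFU sum lay above every other sum. The log2 fold change was 1.97 ± 0.24 (adjusted p = 1.32e-07) for CFU against HSC and 2.15 ± 0.24 (adjusted p = 5.63e-08) for CFU against MkP. HSC and MkP overlapped, with -0.18 (95% interval -0.66 to 0.30, adjusted p = 0.613).

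Bad, whose protein is held inactive by phosphorylation under growth factor signals, ran from 21.3 to 34.99 CPM (median 27.2) in HSC, from 31.3 to 39.2 CPM (median 35.9) in MkP and from 32.97 to 44.9 CPM (median 37.6) in CFU. It was lowest in HSC, with a log2 fold change of 0.48 ± 0.08 (adjusted p = 2.18e-05) for CFU and 0.39 ± 0.08 (adjusted p = 8.29e-04) for MkP. CFU and MkP overlapped, with 0.09 (95% interval -0.08 to 0.26, adjusted p = 0.371). With no scaling factor the difference between CFU and HSC was 0.07 (adjusted p = 0.4404) and that between CFU and MkP turned to -0.24 (adjusted p = 0.0132). Exons of Bad share 524 of 2558 bases with Gpr137 on the opposite strand.

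Bbc3 and Pmaip1, both known p53 targets, were scarce. Bbc3, encoding Puma, ran from 1.03 to 5.604 CPM (median 2.84) in HSC, from 1.49 to 6.95 CPM (median 3.798) in MkP and from 0.861 to 1.82 CPM (median 1.43) in CFU. It was lower in CFU, with a log2 fold change of -1.03 ± 0.30 (adjusted p = 0.00499) against HSC and -1.39 ± 0.31 (adjusted p = 4.72e-04) against MkP, although the ranges overlapped. Pmaip1, encoding Noxa, reached at most 1.38 CPM in HSC, 1.71 CPM in CFU and 4.07 CPM in MkP, and had 0 counts in 3 of 8 HSC sums and 6 of 8 CFU sums. It passed in none of the 3 comparisons in edgeR, with -3.78 (95% interval -7.55 to -0.01, adjusted p = 0.0839) for CFU against MkP. That comparison passed in DESeq2, at -3.96 (adjusted p = 0.02303), without the cells holding markers of other lineages, at -5.00 (adjusted p = 0.0274), without control mouse 1, at -5.36 (adjusted p = 0.0353), and without depleted mouse 4, at -5.35 (adjusted p = 0.0389).

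**Figure D3:**
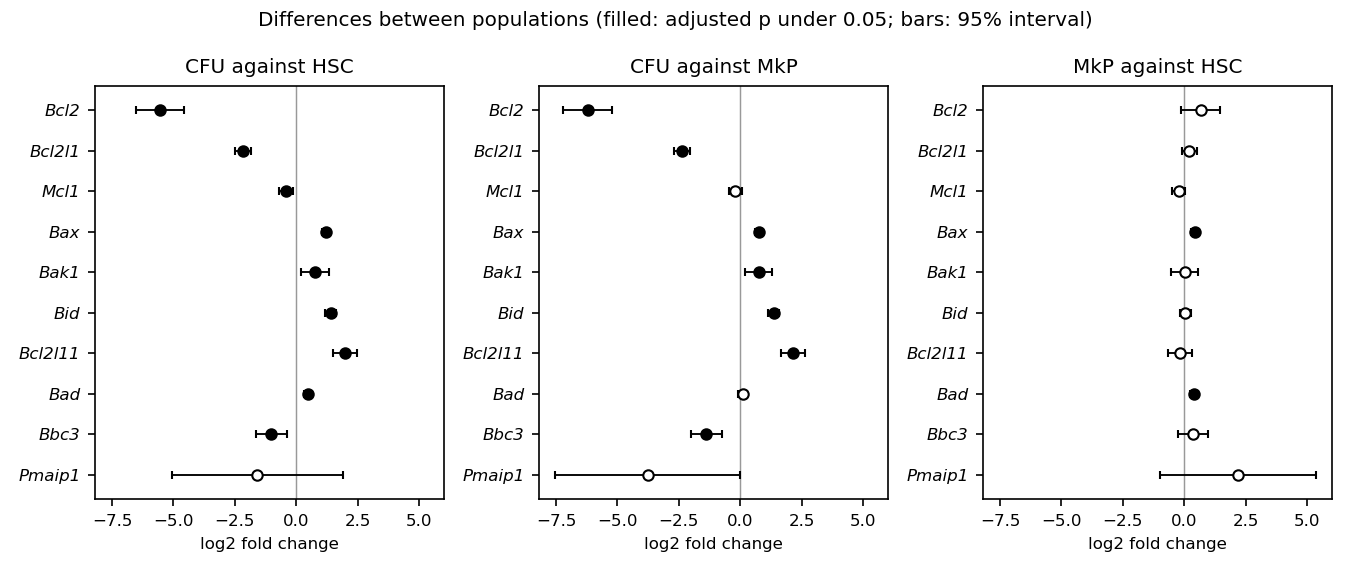
Log2 fold change (x axis) of each gene in 3 comparisons of populations, with 95% intervals from edgeR over 24 sums, filled where the adjusted p was under 0.05. Bcl2, at -5.55 and -6.21, lies farthest from 0 in the CFU comparisons, and Bcl2l11, Bid and Bax lie on the other side of 0.

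The CFU sums did not overlap the HSC sums for 5 of 10 members, against 35.9% of genes, nor the MkP sums for 6 of 10, against 30.2%. MkP and HSC were free of overlap for 0 of 10, against 12.1%. Without a scaling factor the median log2 fold change of all genes was -0.64 for CFU against HSC and -0.54 for CFU against MkP. On that scale 7 of 10 members passed against HSC, against 12917 of 19573 genes, and Bak1 and Bad no longer did. For CFU against MkP 8 of 10 passed, against 11006 of 19573 genes. There Mcl1, at -0.53 (edgeR adjusted p = 5.52e-04), and Bad passed as lower and Bak1 no longer did. Bcl2, Bcl2l1, Bcl2l11, Bid, Bax and Bbc3 kept their direction and their calls in both CFU comparisons under each alternative in which they were tested.

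To set genes side by side, levels were divided by median transcript length (CPM per kilobase). By this measure the 3 guardians made up 27.2% ± 2.27 (SD, n = 8 mice) of the summed level of the 10 genes in HSC, 25.9% ± 2.23 in MkP and 5.69% ± 1.04 in CFU. The BH3-only genes made up 45.95% ± 4.93 in HSC, 42.98% ± 4.26 in MkP and 60.6% ± 2.92 in CFU. The effectors made up 26.9% ± 3.98, 31.1% ± 3.04 and 33.7% ± 2.42 in the same order. The guardian share of every CFU sum, at most 7.44%, lay below that of every other sum. Bid and Bax held the largest shares in each population, 33.8% ± 3.85 and 26.6% ± 4.01 in HSC and 49.3% ± 3.42 and 33.5% ± 2.42 in CFU. These shares depend on the transcript length used. With the longest transcript, the share of Bid was 16.6% in HSC, 14.2% in MkP and 27.6% in CFU, and Bax ranked above Bid in all 3. The order of the classes then turned, with effectors at 49.5% and BH3-only genes at 42.3% in CFU, and in HSC BH3-only genes at 31.4%, guardians at 34.1% and effectors at 34.5%. In MkP the 3 were 29.8%, 31.5% and 38.7%. By either length the mean guardian share was lowest in CFU, at 8.198% with the longest transcript.

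For Bcl2, Bcl2l1, Bid, Bax and Bcl2l11, the mean shares of single cells in CFU differed in the same direction as the sums. Each cell was thinned to 100000 counts, leaving out 12 shallower cells, and the share of cells with a count was averaged over 8 mice. Bcl2 was found in 49.3% ± 4.14 (SD) of HSC cells, 69.99% ± 6.91 of MkP cells and 3.75% ± 2.301 of CFU cells. Before thinning the CFU share was 26.1%, and 3.597% when at least 5 counts were required. Bcl2l1 was found in 45.4% ± 4.49 of HSC, 55.99% ± 4.804 of MkP and 30.8% ± 6.26 of CFU cells. Its CFU mice, at up to 40.54%, overlapped the HSC mice, which began at 37.23%, but not the MkP mice, which began at 49.04%. The 10% of CFU cells with the most Bcl2 counts held 86.7% of them on average, ranging from 52% to 99.15% by mouse. The average was 47.7% in HSC (40.89% to 56.35%), which overlapped CFU, and 36.6% in MkP (31.43% to 42.56%). Counts in CFU were few, at 25 to 512 a sum, and the part of this in these shares was not tested.

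Bid was found in 91.99% ± 5.14 of CFU cells, 38.7% ± 5.04 of HSC cells and 47.4% ± 7.196 of MkP cells. Bax was found in 98.6% ± 1.31 of CFU, 66.8% ± 7.52 of HSC and 83.6% ± 3.76 of MkP cells. For Bcl2l11 the shares were 57.04% ± 9.204, 12.2% ± 4.83 and 11.1% ± 3.19 in the same order. For these 3 genes the CFU mice overlapped neither other population. Bcl2l11 was concentrated outside CFU, with 95.4% of its HSC counts and 41.96% of its CFU counts in the top 10% of cells. Its level was lower in HSC, where 12.2% of thinned cells had a count, and the part of this was not tested. Mcl1 was found in 79.8% ± 5.88 of CFU and 64.95% ± 9.902 of HSC cells, against the direction of its summed level, so no order is read from these shares. More genes were found per CFU cell before thinning, with medians of 8397.5 in control and 7908 in depleted mice. The medians were 6514.5 and 5595 in HSC and 6921.5 and 5915.5 in MkP. The part of this in the shares of cells of any member was not tested.

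Cells were also divided by the guardians they carried. Counts of both Bcl2 and Bcl2l1 were found in 25.9% ± 5.11 of HSC, 42.2% ± 6.37 of MkP and 0.595% ± 0.889 of CFU cells. Neither was found in 31.2% ± 5.28 of HSC, 16.2% ± 4.61 of MkP and 66.05% ± 7.07 of CFU cells. Bcl2l1 without Bcl2 was found in 30.2% ± 6.76 of CFU cells. In HSC the share with both was 29.8% ± 2.84 in control mice (range 25.6% to 31.6%) and 21.96% ± 3.42 in depleted mice (18.2% to 25.8%), which overlapped and were not tested. The median number of genes per HSC cell was 6514.5 for control mice and 5595 after depletion, at medians of 1319671.5 and 1368055 counts, and its part in these shares was not tested.

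**Figure D4:**
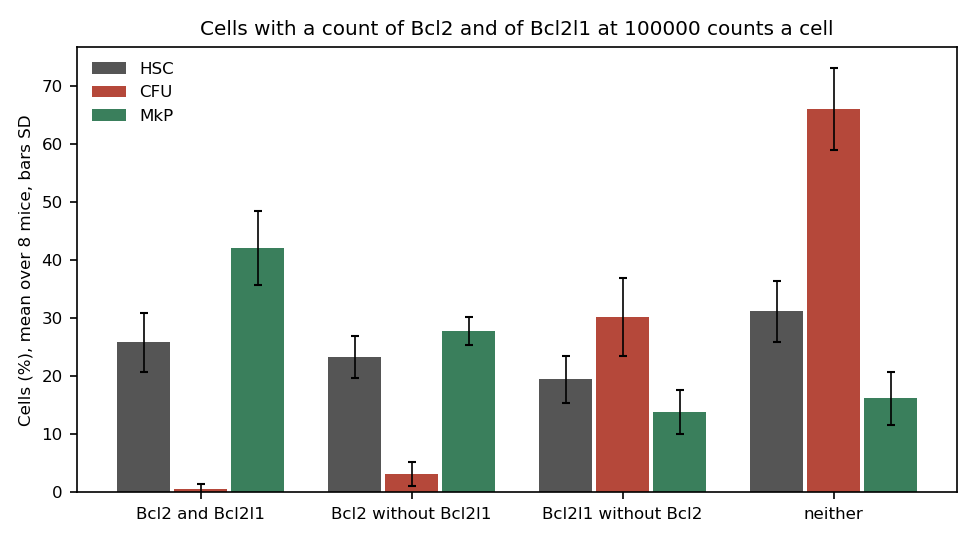
Share of cells (%) of each population with a count of Bcl2, Bcl2l1, both or neither after thinning to 100000 counts a cell, as the mean over 8 mice with the SD as bars (HSC grey, CFU red, MkP green). Cells with neither make up 66.05% of CFU on average, and cells with both 42.2% of MkP.

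No member passed the threshold between depleted and control mice. In HSC 0 of 9 members tested passed in edgeR, in CFU 0 of 9 and in MkP 0 of 10, where 0%, 0% and 0.0108% of genes passed. At an unadjusted p under 0.05 the counts were 0, 0 and 2 members, against 8.56%, 11.9% and 13.7% of genes. DESeq2 called 0 members in each population, against 1.56%, 3.01% and 5.16% of genes. The members' median log2 fold change was 0.13 in HSC, 0.13 in CFU and 0.12 in MkP, against 0.00, 0.01 and 0.01 over all genes. Pmaip1 did not reach the filter on low counts in HSC or CFU.

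The 95% intervals give the sizes of change that the data allow. For Bcl2 the log2 difference, depleted minus control, was 0.12 in HSC (-0.23 to 0.46), 0.08 in MkP (-0.28 to 0.44) and -0.53 in CFU (-2.57 to 1.5), where its level is near 0. For Bcl2l1 it was 0.15 in HSC (-0.36 to 0.66), 0.15 in CFU (-0.38 to 0.68) and 0.28 in MkP (-0.09 to 0.65). For Mcl1 it was -0.12 in HSC (-0.57 to 0.33), -0.24 in CFU (-0.56 to 0.07) and -0.15 in MkP (-0.57 to 0.27). The guardians' intervals all included 0. For Bax it was -0.19 in HSC (-0.49 to 0.11), 0.13 in CFU (-0.07 to 0.33) and 0.02 in MkP (-0.18 to 0.22). In HSC, macrophage markers summed to 15.5 to 94.3 CPM in control and 4.17 to 13.6 CPM in depleted mice, with counts of 6 and 5 of the 6 genes (Adgre1 at 0 in the latter). Without cells holding markers of other lineages 0 members passed in each population, against 0 of 16965 genes in HSC, 0 of 15412 in CFU and 3 of 17962 in MkP.

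Bid and Bbc3 in MkP were the members at an unadjusted p under 0.05. Bid stood at 50.2, 59.2, 52.7 and 51.5 CPM in the control mice and 87.2, 58.5, 66.4 and 65.5 CPM in the depleted mice. The ranges overlapped, with 3 depleted sums above every control sum. The log2 fold change was 0.40 ± 0.13 (adjusted p = 0.249), with adjusted p spanning 0.0603 to 0.414 across alternatives. Bbc3 stood at 2.96, 1.49, 2.34 and 4.22 CPM in control and 6.95, 4.91, 4.497 and 3.38 CPM in depleted mice, again with 3 depleted sums above every control sum. Its log2 fold change was 0.86 ± 0.38 (adjusted p = 0.363), with adjusted p spanning 0.171 to 0.598 across alternatives. Cells with markers of other lineages numbered 89 in control and 56 in depleted MkP, and without them the difference in Bid was 0.34 (adjusted p = 0.3502). The megakaryocyte markers, all 8 with counts, summed to 3583 to 5349 CPM in control and 3011 to 3673 CPM in depleted MkP, with Pf4 averaging 2555 and 1611 CPM. The median number of genes per MkP cell was 6921.5 in control mice and 5915.5 after depletion. The part of these differences in the values of Bid and Bbc3 was not tested.

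In CFU the depleted and control sums did not overlap for 2 of 9 members tested, Bak1 and Bad, against 9.87% of genes. Bad stood at 34.1, 32.97, 36.3 and 36.1 CPM in control and 39.2, 44.9, 42.3 and 38.9 CPM in depleted mice. Every depleted sum was above every control sum, but the log2 fold change of 0.18 ± 0.09 (adjusted p = 0.479) did not pass. Bak1 stood at 1.82, 1.93, 1.97 and 1.897 CPM in control and 2.38, 2.24, 2.501 and 3.61 CPM in depleted mice, with a log2 fold change of 0.43 ± 0.32 (adjusted p = 0.639) that turned to -0.05 (adjusted p = 0.979) in thinned cells. Erythroid markers, all 9 with counts, summed to 13535 to 15558 CPM in control and 15949 to 18878 CPM in depleted CFU, without overlap, and their part in these values was not tested. In HSC 0 of 9 members were free of overlap, against 8.1% of genes, and in MkP 0 of 10, against 9.3%.

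**Figure D5:**
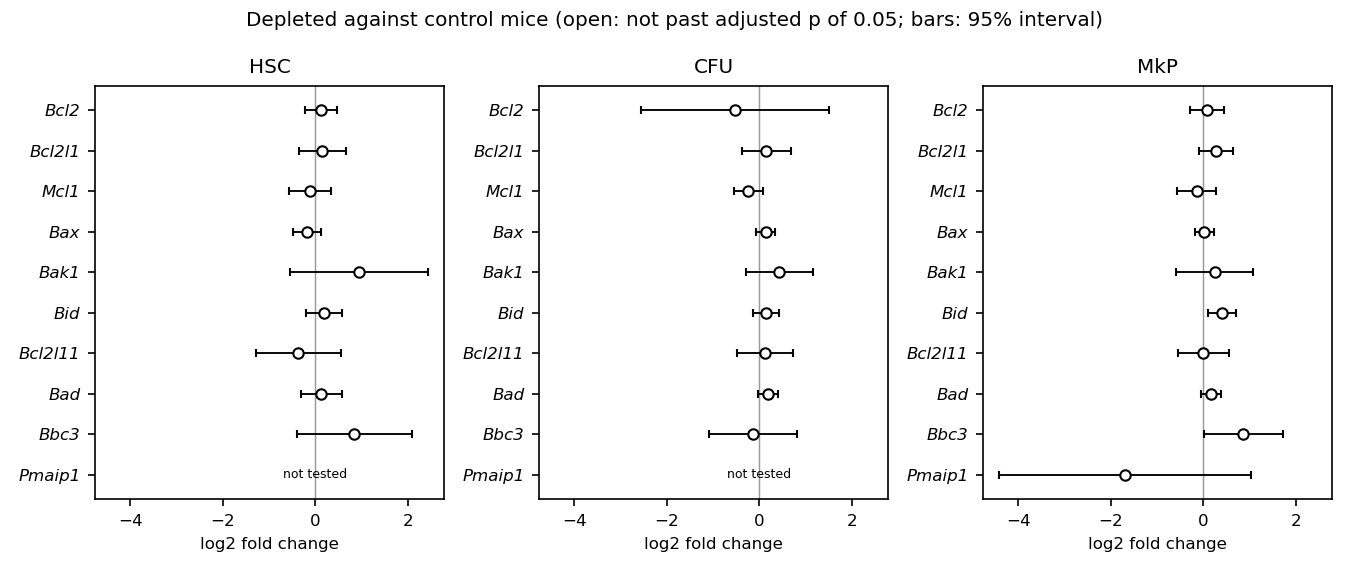
Log2 fold change (x axis) of each gene for depleted against control mice in HSC, CFU and MkP, 4 mice a group, with 95% intervals from edgeR. None of the members passed an adjusted p of 0.05, and the interval of Bcl2 in CFU runs from -2.57 to 1.5.

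Interaction terms compared the effect of depletion between populations. In edgeR 0 of 10 members passed for MkP against HSC, CFU against HSC and CFU against MkP, where 0.0144%, 0% and 0% of 20852 genes passed. DESeq2 also called 0 of 10 members in each, against 1.51%, 2.82% and 2.19% of genes. At an unadjusted p under 0.05 the counts were 0, 2 (Bax and Pmaip1) and 1 (Pmaip1) members, against 6.05%, 9.05% and 5.89% of genes. The Bax term between CFU and HSC was 0.37 ± 0.14 (edgeR adjusted p = 0.418).

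The rest of the cell death pathway was read from 8 lists, at the same threshold, with the share of all genes that rose and fell and the list's median log2 fold change beside its counts. Over all genes the median was -0.23 for CFU against HSC, -0.21 for CFU against MkP and 0.01 for MkP against HSC. Of 10 apoptosome and caspase genes, 7 rose and 2 fell (28.8% and 36.1% of all genes, list median 0.56) in CFU against HSC, 5 rose and 4 fell (23.5% and 31.8% of all genes, list median 0.17) in CFU against MkP and 6 rose and 0 fell (17.4% and 13.6% of all genes, list median 0.39) in MkP against HSC. Cycs, which encodes cytochrome c, averaged 83.9 ± 17.8 CPM (SD, n = 8) in HSC, 185 ± 24.6 in MkP and 453 ± 53.5 in CFU. Apaf1, the scaffold of the apoptosome, was higher in MkP than in HSC by 1.14 ± 0.20 (adjusted p = 9.204e-05) on the log2 scale.

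Of 8 genes of mitochondrial channels and dynamics, 6 rose and 0 fell (28.8% and 36.1% of all genes, list median 1.19) in CFU against HSC and 7 rose and 0 fell (23.5% and 31.8% of all genes, list median 0.74) against MkP. Vdac2, a channel known to bind Bak, averaged 169 ± 19.8 CPM in HSC, 233 ± 18.5 in MkP and 480.3 ± 42.8 in CFU. Of 12 other Bcl2 family genes tested, of 14, 2 rose and 5 fell (28.8% and 36.1% of all genes, list median -1.33) in CFU against HSC. Bnip3, a mitophagy receptor, was lower, at -1.73 ± 0.18 (adjusted p = 8.06e-09), and Bcl2l13, whose exons overlap those of Bid, was higher, at 2.15 ± 0.12 (adjusted p = 1.69e-13).

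Of 8 inhibitors of apoptosis and their antagonists, 4 rose and 3 fell (28.8% and 36.1% of all genes, list median 0.53) in CFU against HSC. Birc5, which encodes survivin and is also known from dividing cells, averaged 26.1 ± 16.5 CPM in HSC, 119 ± 28.5 in MkP and 365 ± 37.4 in CFU. Htra2, a mitochondrial protease that antagonizes these inhibitors, averaged 53.5 ± 4.51, 65.6 ± 6.95 and 223 ± 20.2 CPM. Of 9 death receptor genes, 1 rose and 6 fell (28.8% and 36.1% of all genes, list median -1.42) in CFU against HSC. Tnfrsf1a, a TNF receptor, averaged 78.1 ± 12.7 CPM in HSC, 37.5 ± 6.47 in MkP and 3.72 ± 3.003 in CFU. Casp8, which cleaves Bid and is on this list and that of the caspases, averaged 112 ± 12.6, 104 ± 15.2 and 57.2 ± 6.91 CPM in the same order.

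Of 13 genes for p53 and its targets, 5 rose and 4 fell (28.8% and 36.1% of all genes, list median -0.04) in CFU against HSC. Cdkn1a, the cell cycle inhibitor p21, stood at 1.596 ± 1.096 CPM in CFU and 12.04 ± 11.97 in HSC. Of 10 regulators of Mcl1 and Bim, 3 rose and 2 fell (28.8% and 36.1% of all genes, list median -0.04) in CFU against HSC. Dynll1, a light chain known to tether Bim, averaged 86.8 ± 36.2 CPM in HSC, 198 ± 51 in MkP and 456 ± 49.1 in CFU. The counts of these 2 lists lay near the shares of all genes. Foxo3, a factor known to switch on Bcl2l11, was lower in MkP than in HSC, at -0.46 ± 0.14 (adjusted p = 0.0131) on the log2 scale.

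Of 9 cytokine receptor and STAT5 genes, 1 rose and 5 fell (28.8% and 36.1% of all genes, list median -1.64) in CFU against HSC, and 1 rose and 5 fell (17.4% and 13.6% of all genes, list median -0.77) in MkP against HSC. Epor, the erythropoietin receptor, averaged 16.01 ± 3.51 CPM in HSC, 55.6 ± 8.33 in MkP and 283 ± 31.5 in CFU. For depleted against control mice 0 genes of the 8 lists passed in edgeR in any population.

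The genes closest in pattern to the guardians were found by Pearson correlation of log2 CPM over the 24 sums, among 10259 genes. For Bcl2 these were Klhl6 and Celf2 (both r = 0.987), Bin2 (0.986) and Slc9a3r1 (0.985). For Bcl2l1 they were Ehd3 (0.970), Ppp1r3d (0.968), Cmtm3 and Rbpms2 (both 0.966). For Mcl1 they were Pycard (0.803), Ppp1r15a (0.767), 1810026B05Rik (0.752) and Ier3 (0.715). The 24 sums come from 8 mice and 3 populations, so these values carry the differences between populations and are given as a description.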

How the data were processed

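Trim Galore 0.5, STAR 2.6.0 and HTSeq 0.6.1 are named in the submitters' processing notes, whereas the sources used here do not give the genome build, annotation or use of strand in counting. The deposited matrix holds whole-number read counts per gene and cell, which the authors did not normalize, as far as its values show. Of its columns 3069 matched a sample's title and 1 did not and was not used. Reads carry no molecular identifiers, so they are not independent molecules.

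Kept cells' counts were summed per mouse and population, giving 68792249 to 327869432 counts a sum, since cells of a mouse are not replicates. Sums were tested with edgeR 4.0.16 in R 4.3.3 (quasi-likelihood test, TMM factors, filterByExpr, Benjamini-Hochberg adjustment over all genes tested). Populations and interactions were fitted over 24 sums with treatment in the model, and depletion within the 8 sums of a population. DESeq2 1.42.0, other scaling, filters and cell limits, each mouse left out, and the mouse as a block were alternatives. Same-numbered sums of a treatment come from 1 mouse by the title code: over 24 pairs their deviations correlated at 0.04 to 0.25 (median 0.11).

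Members and lists were chosen with earlier results of these data known. All 10 members are given. Of each list at most 4 genes could be named in a comparison, those with the largest log2 fold change among genes that passed and averaged at least 5 CPM, and for each guardian the 4 genes of highest correlation; some genes of the lists are not reported here. Transcript lengths are from GENCODE M21 and upstream sequences from RefSeq, and coordinates and a sequence for Pmaip1 were not used here.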

Additional observations from a re-analysis of the deposited data

Results flagged for a closer look

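In 3 of 60 groups of 4 mice, 1 mouse lay far from the other 3 by Dixon's criterion, which chance meets in about 1 group in 20. For Mcl1 in MkP it was depleted mouse 2, with 73.1 CPM, where the remaining depleted mice ranged over 43.4 to 46.7 CPM. For Bid in CFU it was control mouse 2, with 181 CPM, where the remaining control mice ranged over 131 to 136 CPM. For Pmaip1 in HSC it was depleted mouse 4, with 0.421 CPM, the remaining depleted mice ranging over 0 to 0.00579 CPM.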

How the results depend on the processing

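The number of members called stayed within 1.5 times its value under every alternative run. With the mouse as a replicate block 2, 9 and 7 of 10 members were called for MkP against HSC, CFU against HSC and CFU against MkP. Of all genes, 6466, 13200 and 11281 of 21714 were called in the same order. The members called were the same genes as without the block, and no member's call changed. Of 560 alternative values between populations 526 kept direction and call, 8 lost the call, 8 gained it and 18 turned; of 494 for depletion 473 kept both and 21 turned, all of them uncalled. Bad in CFU against MkP turned to -0.24 with no scaling factor and to -0.051 among genes averaging at least 8 CPM, where Mcl1 was called at -0.34 (adjusted p = 0.0205). For MkP against HSC, Bak1 was -0.057 with relative log expression factors, -0.074 with no scaling factor, -0.059 in DESeq2, -0.18 in thinned cells, -0.0047 with these populations alone and -0.024 without cells holding markers of other lineages. Bid was -0.027, -0.021 and -0.027 under the first 3 of these and -0.023 among genes averaging at least 8 CPM, and Bbc3 was -0.0079 in thinned cells. For depletion, thinned cells gave -0.046 for Bad in HSC, -0.052 for Bak1 in CFU and -0.035 for Bax in MkP. Bax in MkP was -0.041 among genes averaging at least 8 CPM and -0.0016 without cells holding other markers, and Bcl2l11 in MkP was 0.043 with no scaling factor and 0.0037 with no filter on low counts. With no filter Bak1 in CFU against MkP was 0.74 (adjusted p = 0.0506), and in thinned cells Bak1 in CFU against HSC was 0.65 (adjusted p = 0.116). Leaving out each mouse in turn gave -0.084 to 0.30 for Bak1 and -0.037 to 0.14 for Bid in MkP against HSC, 0.67 to 0.97 for Bak1 in CFU against HSC, and 0.66 to 0.81 for Bak1 and -5.36 to -2.62 for Pmaip1 in CFU against MkP. For depletion it gave -0.028 to 0.30 for Bcl2l1 and -0.28 to 0.014 for Mcl1 in HSC; -1.31 to 0.20 for Bcl2, -0.0040 to 0.31 for Bcl2l1, -0.023 to 0.31 for Bcl2l11 and -0.34 to 0.022 for Bbc3 in CFU; and -0.051 to 0.20 for Bcl2, -0.14 to 0.22 for Bcl2l11 and -0.025 to 0.065 for Bax in MkP. The cause of these changes was not tested. Of the shares of cells 54 of 90 moved by more than 1 SD with the thinning depth or count minimum, and of the levels per length 24 of 90 with the transcript length. Counts of Bcl2 in CFU (25 to 512 a sum), Bak1, Bbc3 and Pmaip1 limit what can be said of depletion in these genes.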
